A study of Mus musculus with 20 samples.

Results

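The 9 genes described here mark regulatory T cells or encode checkpoint and costimulatory receptors of T cells: Foxp3, Ikzf2, Il2ra, Icos, Tnfrsf4, Tnfrsf18, Pdcd1, Ctla4 and Lag3. They were chosen as a named set, and every non-control array feature (probe) that carries one of these gene names was taken. This gave 11 of the 39429 non-control features and 9 of the 31093 gene names on the array, since Icos and Ikzf2 have 2 features each, called probe 1 and probe 2 below. Blood RNA of 20 mice was hybridised to 20 single-colour Agilent arrays, with 5 mice for every combination of genotype and dose. Animals labelled WT were C57BL/6, and animals labelled Il10-/- carried the Il10tm1Cgn allele on that background, a line used as a model of inflammatory bowel disease that lacks the anti-inflammatory cytokine interleukin 10 in every tissue. Each genotype received either 7 Gy of X-rays to the whole body or a sham exposure (0 Gy), and blood was taken by cardiac puncture 24 h later. All mice were young adult males, and per the study's methods they were littermates from crosses of heterozygous parents, housed in 1 room. The comparisons ask how these genes differed between the genotypes before and after exposure, and how each genotype responded to radiation.

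Regulatory T cells are CD4+ T cells that restrain other immune cells. The transcription factor Foxp3 specifies them, Helios (Ikzf2) is a transcription factor found in most of them, and CD25, the interleukin 2 receptor alpha chain encoded by Il2ra, lets them capture interleukin 2. ICOS, OX40 (Tnfrsf4) and GITR (Tnfrsf18) are costimulatory receptors, and CTLA-4 (Ctla4), PD-1 (Pdcd1) and LAG-3 (Lag3) are inhibitory receptors. Activated conventional T cells also carry all of the receptors, so that none of them marks regulatory T cells alone. In whole blood, fewer cells of a type and less RNA per cell cannot be told apart.

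The probes are 60 bases long, and the first 30 bases are shown for the only gene called between the unirradiated groups (Pdcd1) and for the 2 genes read by 2 probes each. All are given 5′ to 3′ as the array files list them.
Pdcd1: aaggaaagggggatataaccttgacgcaaa
Icos probe 1: tagaaccaacatgctctcttccaattccta
Icos probe 2: cttctccattgtaaagggattctgctcctg
Ikzf2 probe 1: ctcaggaacaagcatataatttgtccaaga
Ikzf2 probe 2: tacctgaataacatagtgcaggtcaaacaa
In the mouse build mm9 used by the array files, the Pdcd1 probe lies at chr1:95935064-95935122 on the minus strand, the Icos probes at chr1:61055103-61055162 and chr1:61057105-61057164 on the plus strand, and the Ikzf2 probes at chr1:69577853-69577912 and chr1:69584008-69584067 on the minus strand. The Foxp3 probe lies at chrX:7172301-7172360, Il2ra at chr2:11614744-11614803, Ctla4 at chr1:60971801-60971860, Tnfrsf4 at chr4:155390639-155390698 and Tnfrsf18 at chr4:155402941-155403000, all on the plus strand, and the array files give no position for the Lag3 probe. No annotation of mm9 was used here, so exon, coding part and untranslated part are not given. There are 2 pairs of direct neighbours. In mm9 the Ctla4 probe and Icos probe 1 lie 83.2 kb apart, and the Tnfrsf4 and Tnfrsf18 probes 12.2 kb apart. RefSeq's GRCm38.p6 annotation holds 0 protein-coding genes between the 2 genes of either pair.

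The promoter table from RefSeq (GRCm38.p6) held 6 of the 9 genes, with 7 windows of 250 bases before a transcription start. The letters GGAAA, the core that the T-cell factor NFAT binds, occurred on either strand in all 7 windows and in 55.6% of the 32851 windows of all genes. The letters TTCNNNGAA, which STAT5 of the interleukin 2 pathway binds, occurred in 2 of the 7 windows and in 7.02% of all windows. Pdcd1 (chr1:94052554-94052803, minus strand) and Tnfrsf18 (chr4:156026072-156026321, plus strand) are shown because they are the members called before exposure and, relative to T-cell genes, after exposure. Capitals mark the letters GGAAA on either strand, which stand side by side in Pdcd1, and in Tnfrsf18 also TTCNNNGAA, and no matches overlap in either window.
Pdcd1: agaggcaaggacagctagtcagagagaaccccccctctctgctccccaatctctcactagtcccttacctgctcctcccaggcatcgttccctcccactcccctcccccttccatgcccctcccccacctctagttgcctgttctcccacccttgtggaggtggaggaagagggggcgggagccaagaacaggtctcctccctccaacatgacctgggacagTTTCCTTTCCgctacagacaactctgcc
Tnfrsf18: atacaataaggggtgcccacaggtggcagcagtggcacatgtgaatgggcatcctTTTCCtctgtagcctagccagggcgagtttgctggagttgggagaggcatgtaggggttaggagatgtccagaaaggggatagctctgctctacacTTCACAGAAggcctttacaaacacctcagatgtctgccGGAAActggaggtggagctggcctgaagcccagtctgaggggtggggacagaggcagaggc
These matches are descriptions of the letters and not binding sites measured here.

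Levels are given as log2 of the intensity minus the median of the array, so that 0 is the median non-control probe of an array, and probes are compared only with themselves. The Il10 probe read higher in animals labelled Il10-/- than in animals labelled WT. In the latter it read −1.54 ± 0.45 and −1.85 ± 0.61 (SD, n = 5 each) at 0 and 7 Gy, well above background on 0 of 10 arrays. The animals labelled Il10-/- read 2.75 ± 0.31 and 2.71 ± 0.62 at these doses, well above background on 10 of 10. Whether that probe lies in the disrupted part of the gene was not tested, and every direction below rests on the labels. Between 29.9% and 57.8% of spots were well above background, with the lowest share in unirradiated WT replicate 5. The means of 8 erythroid and 6 platelet genes, at 7.30 to 10.29 and 7.72 to 11.67, mark the RNA as blood, while the means of 11 liver and 7 heart muscle genes ran from 0.72 to 11.20 and from 0.22 to 8.23 over the arrays. The mean of 12 T-cell genes was 4.302 to 6.18 in unirradiated and 4.67 to 5.96 in irradiated animals labelled WT, and 6.12 to 6.51 and 5.31 to 6.34 in animals labelled Il10-/-. Replicates 1 and 2 were the closest pair in every group, and counting them as 1 sample changed no call of a member.

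Before exposure, Pdcd1 was higher in animals labelled Il10-/-, by 1.97 on the log2 scale, and it was the only one of the 9 genes called. A feature was called when limma's moderated test gave a p below 0.001 and a Benjamini-Hochberg rate under 10%. Of the 11 features, 9 passed the filters on background and variation and were tested, and the Lag3 probe and Ikzf2 probe 1 did not. The count of 1 of 9 called stands beside 157 of 18587 features, or 0.845%, in the whole comparison. In 5 of the 9 features (Il2ra, Ctla4, both Icos probes and Pdcd1) all 5 animals labelled Il10-/- lay above all 5 labelled WT, which held for 3.98% of all features. The differences of the 9 features had a median of 0.95 and 7 lay above 0, against a median of 0.36 over all features, and 6 had an unadjusted p below 0.05, as did 2991 of the 18587 features. The 12 T-cell genes differed by nearly as much, with a median of 0.84 and 12 of 12 above 0, and their part in the member differences was not tested. The median of 0.36 over all features was 0.0088 when arrays were scaled to their 75th percentile. Without unirradiated WT replicate 5, the array with the fewest spots well above background, it was 0.15 by array medians. Neutrophil genes were also higher: 7 of 10 were called, with a mean level of 4.32 to 5.95 in animals labelled WT and 7.06 to 9.30 in animals labelled Il10-/-. The 11 liver genes differed by a median of 3.93, with 11 of 11 above 0 and 2 called. The 6 platelet genes differed by a median of 1.02, with 6 of 6 above 0 and 0 called. Erythroid, B-cell and heart muscle genes had medians of −0.17, −0.20 and −0.43, with 0 called. The parts of the neutrophil, liver, platelet and other cell or tissue genes were not tested either.

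None of the 9 features passed the test for a radiation response in either genotype. A missing call does not show that a response was absent. In simulated data 200 of 18587 features were changed, with the spread averaged over the 4 groups. A change of 1 on the log2 scale was called in 0 of the 200. The measured responses differed from this setting, with 1263 features called in animals labelled WT and 1702 in animals labelled Il10-/-. Among the latter was Il7r at −1.21. The simulation therefore does not give the smallest change that could be called there. In animals labelled WT, 0 of 9 were called against 6.8% of all features, 0 of 9 separated the groups against 16.1% of all features, and 0 had an unadjusted p below 0.05 against 5401 of all features. In animals labelled Il10-/-, 0 of 9 were called against 9.16% of all features, and 1 of 9 (Ctla4) separated the groups against 17% of all features, while 2 had an unadjusted p below 0.05 against 6598 of all features. The median difference of the members was −0.27 in animals labelled WT and −0.41 in animals labelled Il10-/-, against −0.42 and −0.58 over the 12 T-cell genes and −0.02 and −0.10 over all features. After exposure, 0 of the 9 features were called between the genotypes (0.00538% of all features, a single feature), and 0 of 9 lay higher in every animal labelled Il10-/- (2.24% of all features). The median difference of the members was 0.96 there, 0.71 over the T-cell genes (12 of 12 above 0) and 0.08 over all features, and 4 members had an unadjusted p below 0.05, as did 2066 of all features. An interaction term over all 20 arrays compared both responses, and there 0 of 9 members and 0% of all features were called and 1301 features had an unadjusted p below 0.05. Among the 9 tested features, the largest interaction was that of Pdcd1, at −1.003 ± 0.54 (SE; limma, adjusted p = 0.688).

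**Figure D1:**
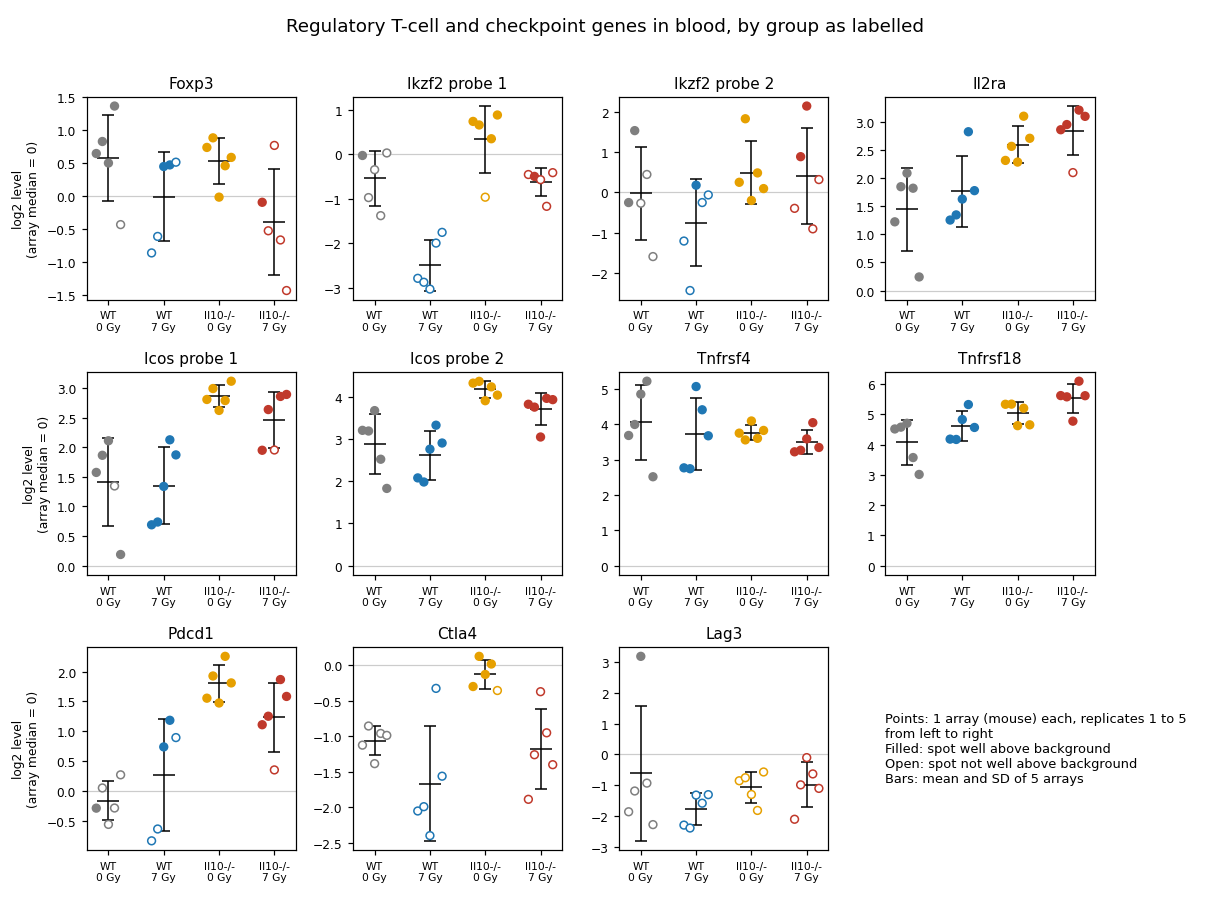
Log2 level, with the array median at 0, of the 11 features in 4 groups (horizontal axis); each point is 1 array, filled where the spot was well above background, and bars give mean and SD of 5 arrays. Pdcd1 in unirradiated animals labelled Il10-/- sits between 1.47 and 2.26, above all animals labelled WT.

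Foxp3, the lineage factor of regulatory T cells, stood at nearly the same level in both unirradiated groups. It read 0.65, 0.83, 0.51, 1.37 and −0.43 in animals labelled WT and 0.74, 0.89, −0.01, 0.46 and 0.59 in animals labelled Il10-/-, a difference of −0.05 with a 95% interval from −0.88 to 0.78. After 7 Gy it read −0.86, −0.61, 0.45, 0.48 and 0.52 in animals labelled WT and −0.09, −0.52, 0.77, −0.66 and −1.43 in animals labelled Il10-/-. The groups overlapped in every comparison. The differences of irradiated from unirradiated mice were −0.59 ± 0.44 (SE) in those labelled WT and −0.92 ± 0.36 in those labelled Il10-/- (limma, adjusted p = 0.411 and 0.0903), and neither was called. Spots were well above background on 4 and 5 of 5 unirradiated arrays but on 2 and 1 of 5 irradiated arrays, so the irradiated levels lie mostly at the limit of the assay. The irradiated genotypes differed by −0.38 ± 0.43 (adjusted p = 0.76).

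Helios, encoded by Ikzf2, was read by 2 probes, of which probe 2 was tested. Probe 2 varied widely within each group, with SDs of 0.79 to 1.19. It ran from −1.60 to 1.53 with a median of −0.26 in unirradiated and from −2.44 to 0.18 with a median of −0.26 in irradiated animals labelled WT, and from −0.20 to 1.83 and −0.91 to 2.14, with medians of 0.25 and 0.32, in animals labelled Il10-/-. All 4 groups overlapped, and the differences lay between −0.73 and 1.17 with adjusted p of 0.454 to 0.927. Probe 1 was marked on 9 of 20 arrays, all 5 irradiated ones labelled WT among them, and was left out of the fit. It read −0.02, −0.97, −0.34, −1.38 and 0.03 in unirradiated and −2.79, −2.87, −3.03, −1.99 and −1.75 in irradiated animals labelled WT. In animals labelled Il10-/- it read 0.74, 0.66, −0.96, 0.35 and 0.89 before and −0.45, −0.49, −0.57, −1.17 and −0.41 after exposure. The irradiated animals labelled WT lay below every mouse of both groups they were compared with (exact 2-sided permutation test, p = 0.0079 for each, the smallest that 5 against 5 allows; 8 such tests were run). The baseline difference had p = 0.079 and the response of animals labelled Il10-/- p = 0.04, and with normexp background correction and its added offset of 50 the response of animals labelled WT was −0.13 (exact permutation p = 0.071). The probe was not well above background on any irradiated array labelled WT and on only 1 of 5 arrays of each group it was compared with, so no fold is given. By probe 2 the same comparisons gave −0.73 ± 0.59 and 1.17 ± 0.62, not called.

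Il2ra, the alpha chain that raises the affinity of the interleukin 2 receptor, was higher in every unirradiated animal labelled Il10-/- than in any labelled WT, without being called. It read 1.23, 1.85, 2.09, 1.82 and 0.24 in animals labelled WT and 2.32, 2.57, 2.29, 3.11 and 2.71 in animals labelled Il10-/-, a difference of 1.15 ± 0.41 (SE; limma, adjusted p = 0.225). After 7 Gy it read 1.26, 1.35, 1.63, 2.83 and 1.78 in animals labelled WT and 2.87, 2.96, 2.10, 3.22 and 3.11 in animals labelled Il10-/-. The irradiated groups overlapped through 1 high animal labelled WT and 1 low one labelled Il10-/-, and differed by 1.08 ± 0.34 (adjusted p = 0.368). The responses to radiation were 0.32 ± 0.45 and 0.25 ± 0.27 (adjusted p = 0.687 and 0.537).

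Icos encodes the receptor through which activated T cells receive help from its ligand ICOSL on B cells and other antigen-presenting cells. Probe 2, well above background on all 20 arrays, read 3.21, 3.19, 3.67, 2.52 and 1.83 in unirradiated animals labelled WT and 4.32, 4.37, 3.91, 4.24 and 4.04 in those labelled Il10-/-. Probe 1 read 1.57, 1.86, 2.11, 1.34 and 0.19 against 2.80, 2.99, 2.62, 2.79 and 3.11. The genotypes did not overlap with either probe, and the differences were 1.29 ± 0.40 and 1.45 ± 0.40 (SE; limma, adjusted p = 0.191 and 0.142). In the irradiated mice probe 2 read 2.08, 1.98, 2.76, 3.33 and 2.91 in those labelled WT and 3.82, 3.76, 3.05, 3.96 and 3.93 in those labelled Il10-/-. These groups overlapped, and both probes gave about the same difference, 1.09 ± 0.31 and 1.10 ± 0.35 (adjusted p = 0.345 and 0.374). The responses to radiation of the 2 probes lay between −0.47 and −0.06 with adjusted p of 0.174 to 0.943. With all 4 groups in 1 fit, probe 1 was called before exposure.

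Tnfrsf4 and Tnfrsf18 encode receptors of the tumour necrosis factor family, and neither was called in any comparison of array-median levels. Tnfrsf4, which encodes OX40, read 3.68, 3.99, 4.85, 5.21 and 2.51 in unirradiated animals labelled WT and 3.75, 3.56, 4.09, 3.60 and 3.82 in those labelled Il10-/-. After 7 Gy it read 2.77, 2.74, 5.06, 4.41 and 3.67 in animals labelled WT and 3.22, 3.26, 3.58, 4.04 and 3.34 in animals labelled Il10-/-. The animals labelled WT spread on both sides of those labelled Il10-/-, and the 4 differences lay between −0.32 and −0.24 with adjusted p of 0.427 to 0.854. Tnfrsf18, which encodes GITR and was well above background on all 20 arrays, read 4.51, 4.57, 4.70, 3.57 and 3.01 in unirradiated and 4.18, 4.17, 4.83, 5.32 and 4.56 in irradiated animals labelled WT. In animals labelled Il10-/- it read 5.33, 5.33, 4.62, 5.20 and 4.65 before and 5.61, 5.57, 4.77, 6.09 and 5.61 after exposure. The groups overlapped in all comparisons, and the responses were 0.54 ± 0.43 and 0.51 ± 0.28 (adjusted p = 0.448 and 0.217). The difference between genotypes was 0.95 ± 0.41 before and 0.92 ± 0.31 after exposure (adjusted p = 0.285 and 0.391).

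Pdcd1, the gene of the inhibitory receptor PD-1, was well above background on 1 of 5 unirradiated arrays labelled WT and on 5 of 5 labelled Il10-/-, so that the lower side of its baseline difference lies near the limit of the assay. It read −0.29, 0.05, −0.56, −0.29 and 0.27 in unirradiated animals labelled WT and 1.55, 1.93, 1.47, 2.26 and 1.81 in those labelled Il10-/-. The groups lay more than 1 log2 unit apart at their nearest mice, and the difference was 1.97 ± 0.36 (SE; limma, adjusted p = 0.0198), positive within each of the 5 slides at 1.54 to 2.54. Leaving out any 1 of the 10 mice gave 1.85 to 2.08 and kept the call. After 7 Gy Pdcd1 read −0.84, −0.64, 0.74, 1.18 and 0.89 in animals labelled WT and 1.11, 1.25, 0.35, 1.87 and 1.58 in those labelled Il10-/-. The irradiated groups overlapped, and differed by 0.96 ± 0.44 (adjusted p = 0.452). The responses were 0.43 ± 0.45 in animals labelled WT and −0.57 ± 0.30 in animals labelled Il10-/- (adjusted p = 0.575 and 0.187). The baseline call was kept with quantile normalization (1.83, adjusted p = 0.033). It was lost with the 75th percentile of each array as reference (1.62, adjusted p = 0.128), with scaling to 1 reference array (1.68, adjusted p = 0.107), in the authors' processed table, which also leaves marked spots out (1.69, adjusted p = 0.11), and with normexp background correction, which here adds an offset of 50 to every signal (0.38, adjusted p = 0.758).

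Ctla4, whose product competes with CD28 for its ligands, was well above background on 4 of 5 unirradiated arrays labelled Il10-/- and on 0 of the other 15. It read −0.30, 0.13, −0.13, 0.02 and −0.36 in that group, above every unirradiated animal labelled WT (−1.13, −0.86, −1.39, −0.96 and −0.99). After exposure it read −1.89, −1.26, −0.37, −0.95 and −1.40 in animals labelled Il10-/- and −2.05, −1.99, −2.40, −0.33 and −1.56 in animals labelled WT. The animals labelled Il10-/- did not overlap before and after exposure, with −0.36 and −0.37 in the nearest mice, while both WT groups and both irradiated groups overlapped. The test gave an adjusted p of 0.235 at baseline and of 0.0209 for the response of animals labelled Il10-/- (unadjusted p = 0.0027, not called). No fold is given for either, because the mean of the brighter group lies under the lowest signal that counted as well above background on the dim arrays. The response of animals labelled Il10-/- was called without irradiated replicate 3 (adjusted p = 0.00579), the array of that group with the fewest spots well above background.

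Lag3, which encodes a receptor for MHC class II, was not well above background on 19 of 20 arrays. It read −1.86, −1.19, 3.19, −0.93 and −2.28 in unirradiated animals labelled WT, so that 1 mouse stood far above the others. The other groups ran from −2.39 to −0.10, and the lowest of the 4 exact 2-sided permutation p-values of its differences was 0.087.

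**Figure D2:**
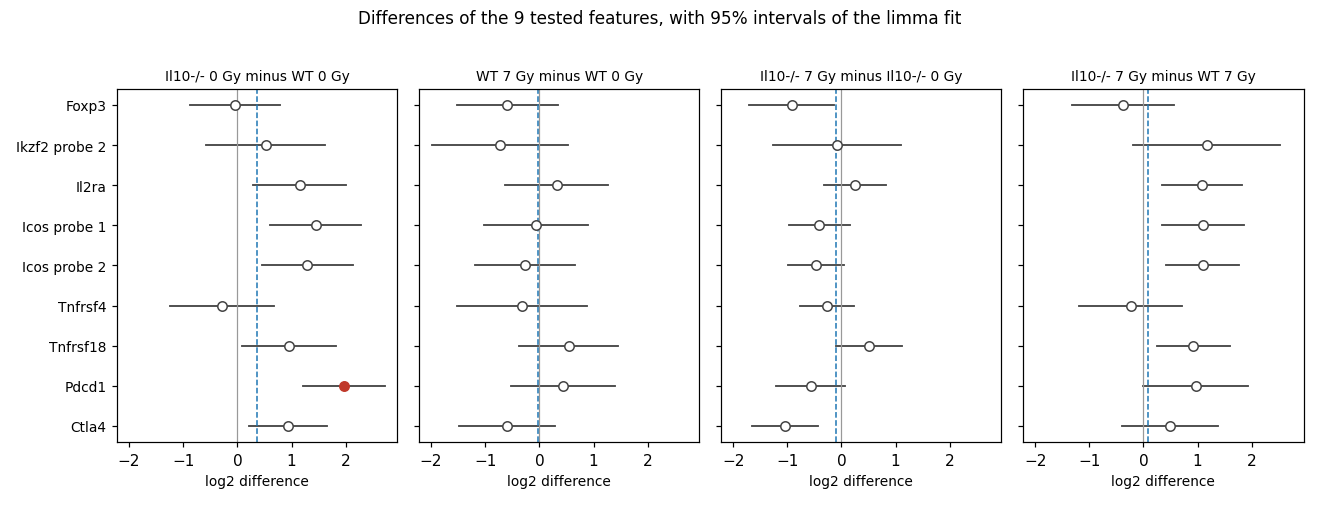
Log2 differences (horizontal axis) of the 9 tested features in 4 comparisons, with 95% intervals of the limma fit; the filled point is the only call, the grey line marks 0 and the dashed line the median over all 18587 features. Intervals of Il2ra, Tnfrsf18 and both Icos probes lie above 0 in both comparisons of the genotypes. Before exposure those of Il2ra and Tnfrsf18 include the median over all features, 0.36.

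Because T-cell genes themselves varied between arrays, each level was also expressed relative to the mean of the 12 T-cell genes of the same array. On this scale the median of all features moved to −0.41 before and −0.58 after exposure between the genotypes, and to 0.27 and 0.31 in the responses of animals labelled WT and Il10-/-. Tnfrsf18 rose with radiation relative to the T-cell genes in animals labelled Il10-/-, by 0.91 ± 0.18 (SE; limma, adjusted p = 0.00456), and was the only member called, beside 9.89% of all features. It read −1.18, −1.17, −1.49, −1.19 and −1.59 before and −0.48, −0.49, −0.54, −0.25 and −0.31 after exposure. In animals labelled WT it read −1.41, −1.43, −1.48, −1.92 and −1.29 before and −0.59, −0.51, −0.72, −0.64 and −0.93 after exposure. The groups were thus apart in both genotypes, although the difference of 0.83 ± 0.27 in animals labelled WT was not called (adjusted p = 0.0543). Groups lay apart in the same direction in 13% of all features in animals labelled WT and in 13.5% in animals labelled Il10-/-. Il2ra was also higher in every irradiated than unirradiated animal labelled Il10-/-, by 0.65 ± 0.21 (adjusted p = 0.0474, not called), and by 0.61 ± 0.31 with overlapping groups in animals labelled WT (adjusted p = 0.207).

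Relative to the T-cell genes, Icos lay higher in animals labelled Il10-/- at both doses by probe 2, without passing the test. Probe 2 read −2.72, −2.82, −2.51, −2.97 and −2.47 in unirradiated animals labelled WT and −2.18, −2.14, −2.21, −2.15 and −2.20 in those labelled Il10-/-. After exposure it read −2.69, −2.69, −2.79, −2.63 and −2.59 against −2.27, −2.31, −2.26, −2.38 and −1.99. The genotypes lay apart at both doses with this probe, which held for 0.754% of all features before and for 0.07% after exposure. The median of all features lay at −0.41 and −0.58 on this scale, which lowers these shares, and they are not read as a rank of Icos. The differences of 0.52 ± 0.18 and 0.44 ± 0.22 were not called (limma, adjusted p = 0.129 and 0.249). Probe 1 differed by 0.68 ± 0.19 before exposure, again without overlap, and by 0.45 ± 0.27 with overlap after it (adjusted p = 0.105 and 0.309). Pdcd1 differed by 1.198 ± 0.44 before exposure and was no longer called (adjusted p = 0.136), and unirradiated WT replicate 5 read −4.03 and the other 4 animals labelled WT −6.74 to −5.78. Foxp3 and Tnfrsf4 differed by −0.82 ± 0.29 and −1.06 ± 0.37 on this scale before exposure (adjusted p = 0.13 and 0.126).

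**Figure D3:**
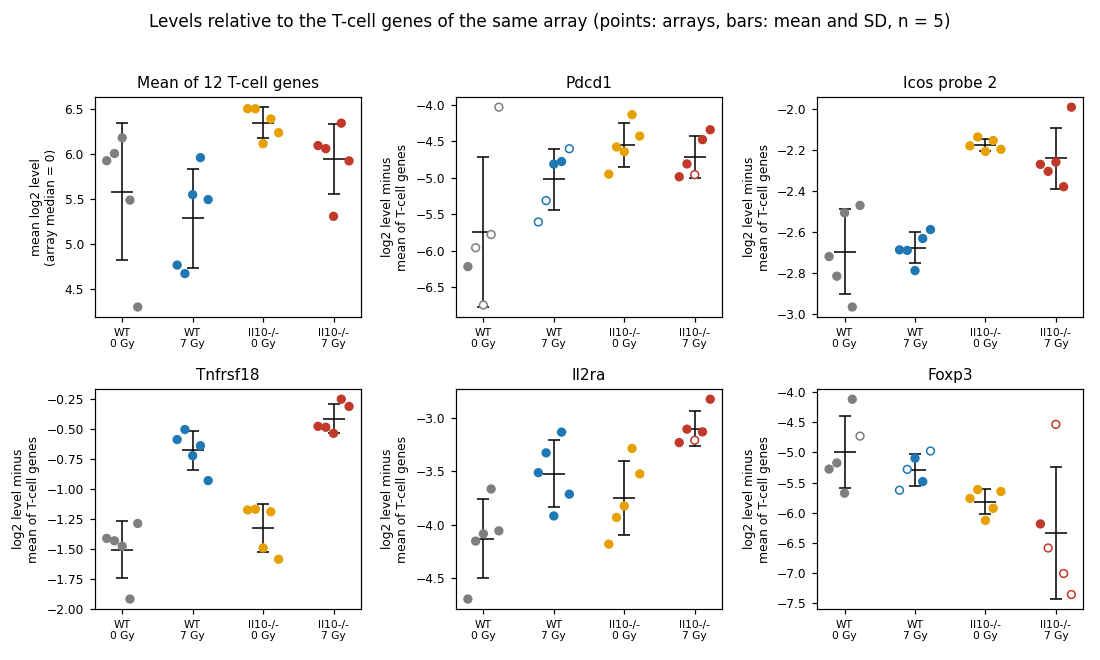
Mean log2 level of 12 T-cell genes and log2 levels of 5 features minus that mean (vertical axes) in 4 groups; points are arrays, open where the spot was not well above background, and bars give mean and SD of 5. Tnfrsf18 sits at −1.92 to −1.17 without and at −0.93 to −0.25 with radiation.

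Of 62 tested genes in 4 lists of genes that work with these receptors, 7 were called in the response of animals labelled WT (11.3%, against 6.8% of all features) and 8 in that of animals labelled Il10-/- (12.9%, against 9.16%). Nothing is read from these shares about the lists, and the called genes are described singly. Of 22 other inhibitory receptors, ligands and partners, 20 were tested; 2 rose and 1 fell in animals labelled WT, and 1 rose and 3 fell in animals labelled Il10-/-. Btla, an inhibitory receptor of B and T cells, fell by 3.39 ± 0.39 in animals labelled WT and by 3.31 ± 0.32 in animals labelled Il10-/- (SE; limma, adjusted p = 0.000108 and 4.6e-05). Cd274, the gene of the PD-1 ligand PD-L1, rose by 1.37 ± 0.23 in animals labelled Il10-/- (adjusted p = 0.00232) and differed by 1.18 ± 0.44 in animals labelled WT (adjusted p = 0.0844, not called). Cd200, whose product inhibits myeloid cells, and Nr4a1, a transcription factor induced by antigen receptors, fell in animals labelled Il10-/- by 1.61 ± 0.31 and 1.30 ± 0.23 (adjusted p = 0.00393 and 0.00278). Lgals9 and Pvrl2, which encode galectin-9 and nectin-2, rose in animals labelled WT by 2.11 ± 0.43 and 3.22 ± 0.57 (adjusted p = 0.00433 and 0.0021), in the comparison where 7 of 11 liver genes were also called higher. The part of the liver RNA in these values was not tested. The 7 heart muscle genes differed by a median of 5.27 in the response of animals labelled Il10-/-, with 5 called higher. Their median was 3.36 in animals labelled WT, with 0 called. The part of the heart muscle RNA in the rises called in animals labelled Il10-/- was not tested.

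Of 17 other costimulatory receptors and ligands 10 were tested, and their calls included the ICOS ligand. Icosl fell by 1.77 ± 0.43 in animals labelled WT and by 1.36 ± 0.30 in animals labelled Il10-/- (limma, adjusted p = 0.0136 and 0.00873), and Cd40, the receptor of antigen-presenting cells for T-cell help, fell by 1.80 ± 0.34 in animals labelled Il10-/- (adjusted p = 0.00388). Cd226, an activating receptor of T and NK cells, rose by 1.39 ± 0.32 in animals labelled Il10-/- (adjusted p = 0.00968) and differed by 1.66 ± 0.42 in animals labelled WT (adjusted p = 0.0166, not called). The 6 platelet genes differed in the same direction, by medians of 1.21 in animals labelled Il10-/- and 1.32 in animals labelled WT, with 6 of 6 above 0 in each genotype and 0 called, and their part in the rise of Cd226 was not tested. B-cell genes fell with these ligands: 7 of 8 tested B-cell markers were called lower in each genotype, and their mean level was 4.68 to 6.16 before and 1.99 to 2.74 after exposure in animals labelled WT, and 4.63 to 5.81 and 1.89 to 2.17 in animals labelled Il10-/-. Their part in the falls of Btla, Icosl and Cd40 was not tested.

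Of 20 other regulatory T-cell genes, 16 were tested and 1 rose and 1 fell in animals labelled WT. Nt5e, the gene of the ectoenzyme CD73, rose by 2.39 ± 0.51 and Cd83, an activation marker shared with B cells and dendritic cells, fell by 2.40 ± 0.46 (limma, adjusted p = 0.00602 and 0.00345). In animals labelled Il10-/- 0 of the 16 were called and 8 had an unadjusted p below 0.05, and Nt5e and Cd83 differed by 1.17 ± 0.30 and −1.96 ± 0.56 (adjusted p = 0.0177 and 0.0279). Of 18 genes of interleukin 2 receptor signaling, 16 were tested. Socs2, a feedback inhibitor of STAT5, rose by 1.51 ± 0.37 in animals labelled WT (limma, adjusted p = 0.0141). Il7r, the interleukin 7 receptor, fell by 1.21 ± 0.27 in animals labelled Il10-/- (adjusted p = 0.00873). The 11 liver genes differed by a median of 6.93 in the response of animals labelled WT, and 7 were called higher. Their part in the rises of Nt5e and Socs2 was not tested. In limma 0 genes of the 4 lists were called before exposure, between the irradiated genotypes or in the interaction; by unadjusted p below 0.05 the regulatory, inhibitory, costimulatory and interleukin 2 lists held 8, 7, 2 and 5 genes before exposure, 3, 2, 6 and 4 between the irradiated genotypes, and 0, 3, 0 and 0 in the interaction. Over all 18587 features 2991, 2066 and 1301 had such a p in these comparisons. Before exposure the medians of the regulatory, inhibitory, costimulatory and interleukin 2 lists were 0.93, 0.64, 0.37 and 0.81, against 0.84 over the T-cell genes and 0.36 over all features. Of 7 naive T-cell markers 4 fell in animals labelled WT and 5 in animals labelled Il10-/-, and 0 of 12 T-cell genes were called, with 3 and 7 at an unadjusted p below 0.05. In these responses 6.8% and 9.16% of all features were called, and 5401 and 6598 of 18587 had such a p.

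**Figure D4:**
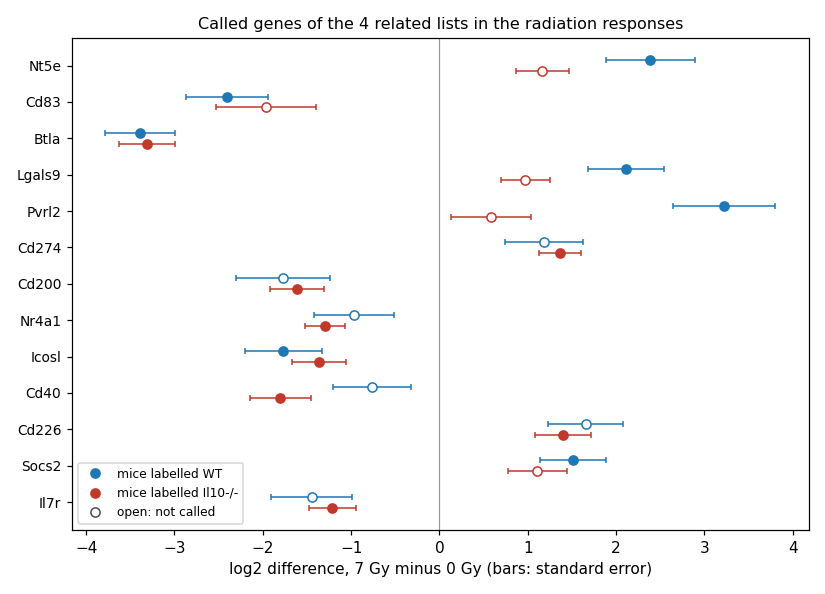
Log2 differences of irradiated from unirradiated mice (horizontal axis) for the 13 genes of the 4 related lists that were called in a response; bars are standard errors and open points are not called. Btla lies near −3.39 and −3.31 in the 2 genotypes.

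Over the 20 arrays, the genes whose levels ran most like those of the members other than Lag3 were listed among 18740 genes with 1 probe each, as a description in which all points share the arrays, the groups and the T-cell content. Icos ran with Tnfrsf25 and Cd28 (Pearson r = 0.951 and 0.943), the latter the main costimulatory receptor of T cells. Tnfrsf18 ran with Serpina3g, Cxcr3 and Tnfsf10 (r = 0.974, 0.972 and 0.97), and Il2ra with the transcript ENSMUST00000103566, Nmb and the T-cell kinase gene Zap70 (r = 0.925, 0.919 and 0.91). Foxp3 ran with Pax5, a factor of B cells, and with Smc2 and 2010109A12Rik (r = 0.876, 0.862 and 0.838). Pdcd1 ran with Kif5a, Rgs1 and ENSMUST00000103559 (r = 0.813, 0.804 and 0.793), and its nearest member, Icos, stood at rank 5 with 0.785. Ctla4 ran with Ggt1, BQ939345 and the chemokine receptor gene Ccr4 (r = 0.894, 0.804 and 0.78), Tnfrsf4 with Ldoc1l, Ffar3 and TC1676895 (r = 0.948, 0.944 and 0.943) and Ikzf2 with NAP112914-1, ENSMUST00000183060 and Arntl (r = 0.803, 0.789 and 0.782). No member was among the 3 genes most like another member.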

How the data were processed

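Whole-blood RNA of 20 mice was globin-reduced, labelled with Cy3 and hybridised to 20 arrays, 1 per mouse. For each array the authors deposited scanner output in which the intensity of each spot was background-subtracted and detrended by Agilent Feature Extraction (10.7 in the labels, 12.0.2.2 in the file headers) without scaling across arrays. A second deposited file holds log2 values made by the authors with a single scaling constant for every array and with marked spots missing, and it served as an alternative. Groups and replicate numbers were taken from the labels; each replicate number is a slide with 1 array of every group.

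Intensities were log2-transformed, outlier spots were left out, repeated spots averaged, and every array was centred on the median of its 39429 non-control probes. A feature marked on 25% or more of arrays was removed, and one was kept only if at least 20% of arrays lay 1.5-fold or more from its median, which left 18587. Each pair of groups was fitted over its 10 arrays in limma 3.58.1 (R 4.3.3, data.table version 1.17.8) with moderated variances, and adjusted p-values are Benjamini-Hochberg over all tested features. The 2 removed probes were compared by exact 2-sided permutation tests. Normalization, filters, replicates, the slide as a block and the call threshold were varied. Steps were tested on simulated data in which 200 of 18587 features were changed and the spread was averaged over the 4 groups. A change of 1 on the log2 scale was called in 0 of the 200 in every comparison. A change of 2 was called in 138 to 154 between pairs of groups and in 76 in the interaction. Figures and promoter windows used Python 3.11.15 and matplotlib 3.10.9. The members and lists were chosen with earlier results of these data known. Named genes are all members, Il10, called genes of the 4 related lists and the 3 genes most like each member with a probe that passed the background filter (all but Lag3), of which 1 is not reported here. The check of pairing gave correlations of deviations from group means on a slide of −0.658 to 0.683, in no pair of groups over 0.1 on all 5 slides. They were over 0.1 on 4 slides between the irradiated genotypes (mean 0.414) and between the 2 WT groups (mean 0.223). The main fits did not pair arrays by slide. The p-values measure the spread between the arrays of a group, 1 per mouse, which holds differences between slides as well as between mice. The number of arrays and the signal over background limit precision.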

Additional observations from a re-analysis of the deposited data

Results flagged for a closer look

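In 4 of 44 sets of 5 arrays, 1 array stood apart from the other 4 by Dixon's criterion, and chance alone marks about 1 in 20 such sets. Lag3 read 3.19 in unirradiated replicate 3 labelled WT, the only array of 20 where it was well above background. Ikzf2 probe 1 read −0.96 in unirradiated replicate 3 and −1.17 in irradiated replicate 4 labelled Il10-/-, both the lowest of their groups and neither well above background. Icos probe 2 read 3.05 in irradiated replicate 3 labelled Il10-/-, the array of that group with the fewest spots well above background (34.6%) and the lowest T-cell mean (5.31).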

How the results depend on the processing

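The count of members called before exposure was 1 by array medians and 0 with 75th percentile scaling, with scaling to the T-cell genes, with normexp and in the authors' table, and 2 with all 4 groups in 1 fit; scaling to a reference array called Icos probe 1 in place of Pdcd1. In the response of animals labelled Il10-/- the count went from 0 to 1 with quantile normalization (Ctla4), scaling to T-cell genes (Tnfrsf18), a false discovery rate below 5% alone (Ctla4) and without irradiated replicate 3 (Ctla4; 0 to 1 over the leave-one-out fits). In the response of animals labelled WT it was 1 with no filters (Ikzf2 probe 1). In the limma fits, the other counts of called members stayed at their value. The exact permutation p-values of Ikzf2 probe 1, left out of the main fits, also moved. In the response of animals labelled Il10-/- the value was 0.04 by array medians and 0.21 with scaling to T-cell genes. Without unirradiated Il10-/- replicate 1 it was 0.087. Before exposure it went from 0.079 to 0.024 with normexp. With the slide as replicate block no member call changed (Pdcd1 alone, 1, before exposure and 0 elsewhere), while calls over all features before exposure went from 157 to 384. Over all features the baseline count was 44, 25, 78, 1, 0, 57, 66 and 76 with 75th percentile, quantile, reference array and T-cell scaling, normexp, the authors' table, no filters and a 5% rate alone. Without 1 array at a time it was 47 to 181, with 47 without unirradiated WT replicate 4 and 100 without unirradiated Il10-/- replicate 4. The response of animals labelled WT had 1263 calls, and 1967, 376, 1766, 1626, 2119, 754 and 2712 with the reference array, normexp, the authors' table, the block, the 4-group fit, replicates 1 and 2 averaged and the 5% rate; that of animals labelled Il10-/- had 1702, and 0, 814, 4053, 1290 and 1212 with normexp, replicates averaged, the 5% rate, the block and the 4-group fit, and 1133 without unirradiated Il10-/- replicate 1. The irradiated comparison had 1 call, and 5 and 407 with the reference array and T-cell scaling.

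Uncalled differences changed sign as follows, and the cause was not tested. Ctla4 after exposure became −0.22 with quantile normalization and −0.17 on the T-cell scale. Ikzf2 probe 2 in the response of animals labelled Il10-/- became 0.065, 0.32, 0.45 and 0.10 with the reference array, T-cell scaling, the authors' table and averaged replicates, and −0.25 before exposure on the T-cell scale. Icos probes 2 and 1 in the WT response became 0.019 and 0.23 on the T-cell scale and 0.14 and 0.0097 with normexp, and probe 1 0.17 with averaged replicates. Tnfrsf4 in the Il10-/- response became 0.13 on the T-cell scale, and with normexp 0.13 before exposure and 0.46 in the WT response. With normexp Foxp3 became 0.042 before exposure and Il2ra −0.10 in the Il10-/- response. Lag3 in the Il10-/- response became −0.39 with quantile normalization and −0.026 with normexp, and with normexp −0.0081 after exposure. Without 1 array at a time, ranges that crossed 0 were −0.30 to 0.14 for Foxp3, −0.67 to 0.0044 for Tnfrsf4 and −0.86 to 0.51 for Lag3 before exposure, −0.37 to 0.11 for Icos probe 1 in the WT response, −0.49 to 0.094 for Tnfrsf4 after exposure, and −0.52 to 0.25 for Ikzf2 probe 2 and −0.15 to 0.35 for Lag3 in the Il10-/- response.

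Signal over background limits the dim probes: Foxp3, Ctla4, Pdcd1, Lag3 and both Ikzf2 probes were near background in at least 1 group. With normexp, which corrects background differently and here adds an offset of 50 to every signal before the logarithm, the baseline difference of Pdcd1 went from 1.97 to 0.38. The part of the offset in this was not tested.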
